A study of Mus musculus with 6 samples.

Results

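Kainate receptors are ionotropic glutamate receptors built from the subunits encoded by *Grik1* to *Grik5*, and the auxiliary proteins encoded by *Neto1* and *Neto2* bind to them. These 7 genes were chosen by name from a table of 34632 loci assembled from mouse brainstem RNA. Each was found on a single locus that carried no other gene name, and all 7 passed the filter on low counts. The RNA came from mice at postnatal day 21 (P21) that were given tamoxifen from P1 to P4, and ribosomal RNA had been depleted before sequencing. The 3 libraries labelled *Hoxa5* cKO came from *Hoxa5*flox/flox;*CMV-CreERT2*+/- animals, and the 3 libraries labelled *Hoxa5* control came from *Hoxa5*flox/flox;*CMV-CreERT2*-/- littermates. Both genotypes were therefore homozygous for the floxed allele and received tamoxifen, and they differed in the inducible recombinase. The CMV promoter that drives this recombinase is not restricted to 1 cell type. Each library was a pool of 3 brainstems, so that the spread between libraries is a spread between pools of animals. The comparison asks which of the kainate receptor genes differed in level when *Hoxa5* had been targeted after birth.

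In the receptor, 4 subunits surround an ion pore that opens when glutamate binds. GluK1 to GluK3, encoded by *Grik1* to *Grik3*, can form channels on their own. GluK4 and GluK5, encoded by *Grik4* and *Grik5*, bind kainate with high affinity and form working channels only together with GluK1 to GluK3. Kainate receptors act on both sides of the synapse, where they carry slow excitatory currents and modulate the release of glutamate and GABA. Neto proteins slow the gating of the channel and change its affinity for agonists. In the cerebellum, which adjoins the brainstem, granule neurons are known for strong expression of *Grik2*.

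The subunits resemble each other around the tip of the pore loop, and 54 coding bases from there are shown because they hold the site where RNA editing alters the pore of GluK1 and GluK2. The sequences are spliced coding sequence on the gene's strand, read from the GENCODE M21 annotation of GRCm38, the same assembly as the mm10 build of the data. Capitals mark the glutamine codon of the Q/R site, named for the change of glutamine (Q) to arginine (R) that editing makes.
Grik1: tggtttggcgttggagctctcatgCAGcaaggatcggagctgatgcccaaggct
Grik2: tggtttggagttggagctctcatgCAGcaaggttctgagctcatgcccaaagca
Grik3: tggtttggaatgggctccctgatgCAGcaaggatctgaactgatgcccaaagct
Grik4: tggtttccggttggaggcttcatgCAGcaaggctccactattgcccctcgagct
Grik5: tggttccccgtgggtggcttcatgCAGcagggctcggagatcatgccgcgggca

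The genome codes for glutamine in all 5 genes. The codon lies in exon 13 of *Grik1* (chr16:87940542-87940544, minus strand), exon 13 of *Grik2* (chr10:49244329-49244331, minus), exon 12 of *Grik3* (chr4:125691207-125691209, plus), exon 16 of *Grik4* (chr9:42547623-42547625, minus) and exon 15 of *Grik5* (chr7:25022497-25022499, minus). In *Grik1*, *Grik2* and *Grik3* the window runs across an exon junction, whereas in *Grik4* and *Grik5* it lies within 1 exon. *Grik1* and *Grik2* differed at 6 of the 54 bases, and *Grik3* differed from each of them at 10. *Grik4* and *Grik5* differed from each other at 16 bases, and from *Grik1* to *Grik3* at 16 to 23 bases. Over the whole coding sequence, *Grik1* to *Grik3* shared 71.8% to 72.7% of aligned bases, *Grik4* and *Grik5* shared 72.3%, and pairs across these sets shared 59.7% to 64.1%. *Neto1* and *Neto2* shared 67.6%. The deposited values are fragments per gene, so the edited share of *Grik1* and *Grik2* RNA was not measured.

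The deposited table numbers the libraries within a genotype, here from 1, and the numbers are not tied to pools. The libraries held 12034613 to 13202707 fragments. The *Hoxa5* locus, which also takes in *Hoxa6* and a noncoding RNA, went against some labels, with 279, 57 and 63 fragments in labelled cKO replicates 1, 2 and 3 and 202, 337 and 77 in labelled control replicates 1, 2 and 3. Fragments of 4 Y-linked genes summed to 3, 1297 and 1069 in labelled cKO libraries and to 1251, 1259 and 1734 in labelled control libraries. Pairs with labelled cKO replicate 3 gave a chi-square per degree of freedom of 4.14 to 7.84 over loci, and the other pairs gave 2.08 to 3.61. Brainstem neuron markers such as *Slc17a6* summed to 1204 to 1405 CPM (counts scaled to a common library size) in labelled cKO libraries and to 1195 to 1307 CPM in labelled control libraries. Of 5 forebrain neuron markers only 2 passed the count filter, and the list summed to 3.99 to 5.53 CPM in labelled cKO and to 4.31 to 4.92 CPM in labelled control libraries.

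Of the 7 genes, *Grik2* was the only 1 that passed the test between genotypes, and it was lower in the libraries labelled cKO. The call was 1 of 7 genes, against 0.531% of the 21854 loci tested (0.503% called lower and 0.0275% called higher). The test was edgeR's quasi-likelihood test with Benjamini-Hochberg adjustment over all loci and a threshold of 0.05. The median log2 fold change of the 7 genes, labelled cKO over labelled control, was 0.05, and that of all loci tested was 0.00. In 3 of the 7 genes the log2 fold change was below 0, and over all loci this held for 48.6%. By edgeR no member was called higher, and 1 gene, *Neto1*, was higher at an unadjusted p under 0.05. By DESeq2 no member was called higher either.

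**Figure D1:**
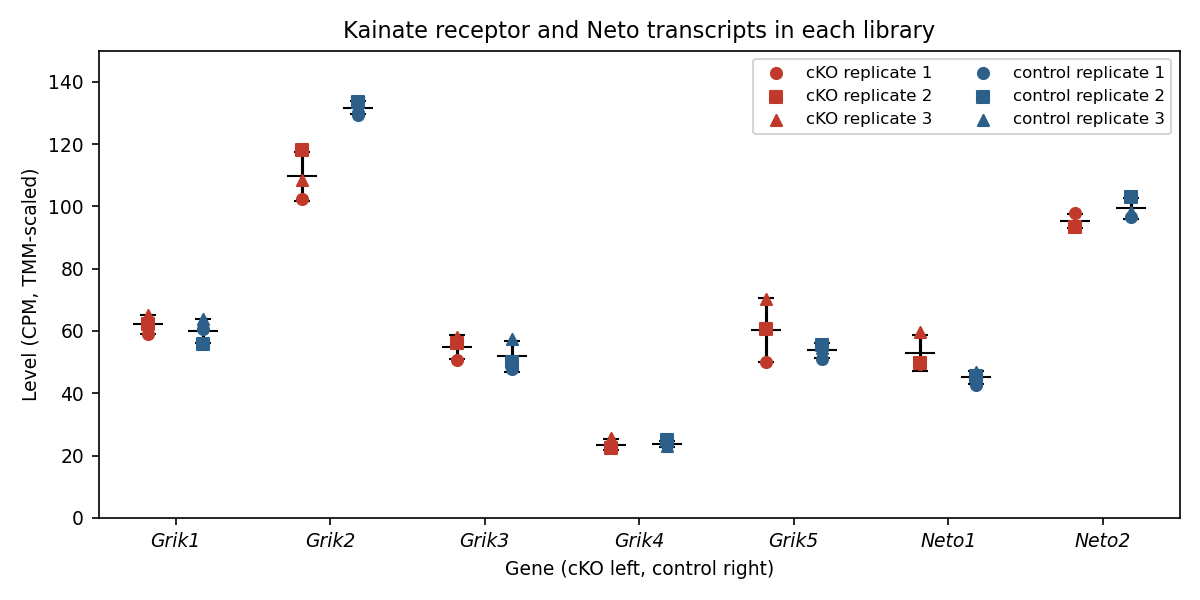
Level of each gene in CPM (vertical axis from 0) in the 3 libraries labelled cKO and the 3 labelled control, 1 point a library, with the mean and SD of each genotype. The *Grik2* points of labelled cKO (102.5 to 118.0 CPM) and of labelled control (129.4 to 133.5 CPM) do not overlap, and those of *Neto1* do not overlap in the other direction.

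GluK2, the product of *Grik2*, is a pore-forming subunit found widely in the brain. Its locus spans chr10:49098145-49788955 (mm10, minus strand) and holds 8 assembled transcripts. It had 1228, 1538 and 1375 fragments in labelled cKO replicates 1 to 3, against 1579, 1639 and 1752 in labelled control replicates 1 to 3. On the CPM scale these were 102.5, 118.0 and 108.6 in labelled cKO libraries and 129.4, 133.5 and 132.4 in labelled control libraries. Every labelled cKO library was below every labelled control library, and the spread was wider in labelled cKO (109.7 ± 7.82 CPM, SD, n = 3) than in labelled control (131.8 ± 2.14 CPM, SD, n = 3). *Grik2* fell to 0.833 of the labelled control level (95% interval 0.769 to 0.902), with a log2 fold change of -0.26 ± 0.05 (SE) and an adjusted p of 0.0388 by edgeR. It ranked at 91 of the 21854 loci by p. Groups that do not overlap were found at 12.2% of all loci.

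The *Grik2* call lay near the threshold. The log2 fold change stayed between -0.32 and -0.22 when each library was left out in turn, but the edgeR adjusted p was under 0.05 only without labelled cKO replicate 2 (0.0242). It was 0.0649 without labelled cKO replicate 1, 0.120 without labelled cKO replicate 3, and 0.155, 0.151 and 0.117 without labelled control replicates 1, 2 and 3. Without both libraries whose *Hoxa5* went most against their label, labelled cKO replicate 1 and labelled control replicate 3, the log2 fold change was -0.21 and the adjusted p was 0.128. In the same fit the log2 fold change was 0.13 for *Grik1*, 0.22 for *Grik3* (unadjusted p 0.00665), 0.30 for *Grik5* (0.00139) and 0.31 for *Neto1* (0.00199). These are above their values over all 6 libraries, and the edgeR adjusted p of these 4 genes was 0.105 to 0.571, so none was called. Over all loci, 161 were called in that fit, against 116 with all 6 libraries.

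**Figure D2:**
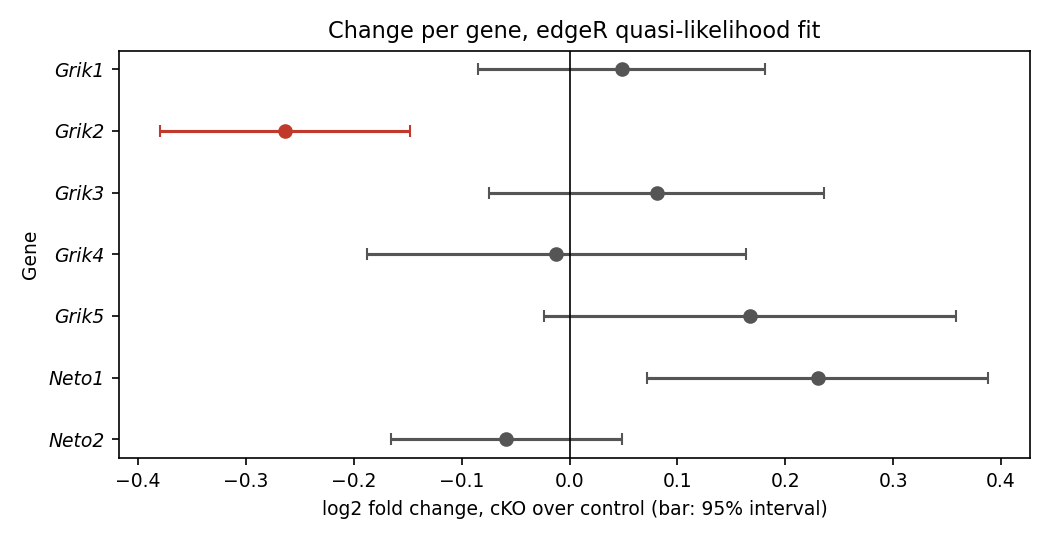
Log2 fold change of each gene, labelled cKO over labelled control, by edgeR (horizontal axis), with bars for the 95% interval and *Grik2* in red. The intervals of *Grik2* (-0.38 to -0.15) and *Neto1* (0.07 to 0.39) do not include 0, and those of the other 5 genes do.

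Markers of cerebellar cells, in lists chosen with earlier results of these data known, were lower between the same labels as *Grik2*. The 5 granule neuron markers, among them *Gabra6* and *Neurod1*, were all called lower, with a median log2 fold change of -1.93. Their summed level was 107 to 137 CPM in labelled cKO libraries and 289 to 564 CPM in labelled control libraries, and none was at 0 in any library. For Purkinje cells 4 of 5 markers were called lower, and the list summed to 106 to 141 CPM in labelled cKO and to 179 to 316 CPM in labelled control libraries. The largest part of that sum was *Rgs8*, the marker not called (means of 83.8 CPM in labelled cKO and 121.6 CPM in labelled control libraries). For Bergmann glia 3 of 3 markers were called lower, and they summed to 249 to 278 CPM in labelled cKO and to 311 to 357 CPM in labelled control libraries. Most of this second sum was *Slc1a3* (means of 237.6 CPM in labelled cKO and 298.0 CPM in labelled control libraries). Among the brainstem neuron, astrocyte, oligodendrocyte, oligodendrocyte precursor, microglia and endothelial markers none was called by edgeR or DESeq2, and 3 of 5 astrocyte and 1 of 3 precursor markers had an unadjusted edgeR p under 0.05.

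Within labelled cKO, *Grik2* and the granule markers had the same order over libraries. Within labelled control they did not, since the granule sum was 564, 375 and 289 CPM in replicates 1, 2 and 3 where *Grik2* was 129.4, 133.5 and 132.4 CPM. With 3 libraries a genotype, these orders are a description, and they were not tested. With the mean granule marker level as a covariate, the *Grik2* log2 fold change was -0.21 ± 0.19 (SE), with an edgeR adjusted p of 1. The covariate and the genotype were correlated at -0.95 over the 6 libraries, so in this fit the genotype and the granule level cannot be told apart. In such bulk RNA, fewer cells of a type, less RNA per cell and less adjoining cerebellar tissue in a pool cannot be told apart either.

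**Figure D3:**
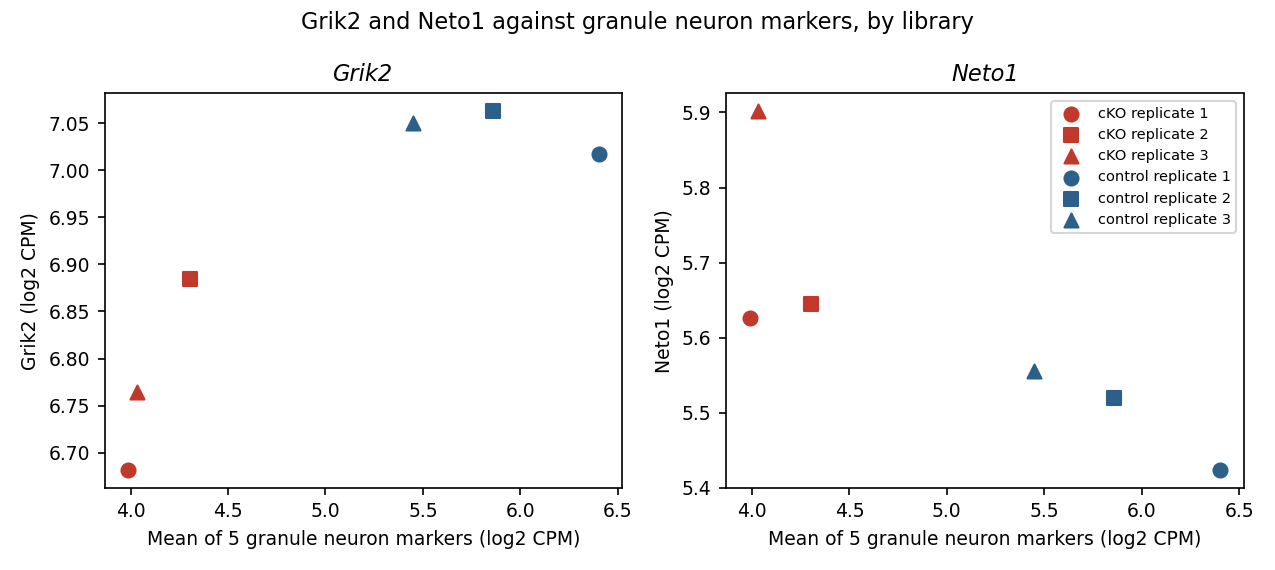
Level of *Grik2* and of *Neto1* (vertical axes, log2 CPM) against the mean of 5 granule neuron markers (horizontal axis, log2 CPM), 1 point a library, with red for labelled cKO and blue for labelled control and a symbol for each replicate number. The labelled cKO libraries lie at 3.99 to 4.30 and the labelled control libraries at 5.45 to 6.40 on the granule axis, with no library between.

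The other subunits that form channels on their own did not pass the test. *Grik1* encodes GluK1, and its locus is at chr16:87895768-88290300 (minus strand). It had 58.9, 62.3 and 65.1 CPM in labelled cKO libraries and 60.5, 56.0 and 63.7 CPM in labelled control libraries. The groups overlapped, and the fold was 1.03 with a 95% interval of 0.943 to 1.13. *Grik3* encodes GluK3, a subunit of low sensitivity to glutamate, at chr4:125490777-125714173 (plus strand). It had 50.7, 56.1 and 58.0 CPM in labelled cKO libraries and 47.9, 50.2 and 57.6 CPM in labelled control libraries. These groups overlapped too, with a fold of 1.06 (0.95 to 1.18). With the granule covariate the log2 fold change turned below 0 for *Grik3* (-0.30 ± 0.23, SE) and *Grik1* (-0.04 ± 0.21, SE). For both genes the interval without it leaves out the fold of 0.833 fitted for *Grik2*. The differences between genes were not tested against each other.

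The high-affinity subunits did not pass the test either. *Grik4*, at chr9:42520267-42944517 (minus strand), had 22.7, 22.3 and 25.6 CPM in labelled cKO libraries and 23.3, 24.9 and 23.0 CPM in labelled control libraries. Its fold was 0.992 (95% interval 0.878 to 1.12), with overlapping groups. *Grik5*, at chr7:25009777-25072437 (minus strand), had 49.9, 60.7 and 70.4 CPM in labelled cKO libraries and 51.0, 55.6 and 54.6 CPM in labelled control libraries. The labelled cKO libraries of *Grik5* lay on both sides of the labelled control libraries and spread more widely (60.3 ± 10.2 against 53.8 ± 2.42 CPM, SD, n = 3 each). The log2 fold change of *Grik5* was 0.17 ± 0.09 (SE), with an edgeR adjusted p of 0.792. It was 0.04 without labelled cKO replicate 3, the library that stood apart, and 0.28 without labelled cKO replicate 1.

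Of the auxiliary genes, *Neto1* had the larger difference. It encodes a protein that binds kainate receptors and also NMDA receptors, and lies at chr18:86394800-86507001 (plus strand). *Neto1* had 49.2, 49.9 and 59.6 CPM in labelled cKO libraries and 42.8, 45.7 and 46.9 CPM in labelled control libraries. All labelled cKO libraries were above all labelled control libraries, which held for 12.2% of loci in either direction, so *Grik2* and *Neto1* were 2 of 7 genes with no overlap. The fold of *Neto1* was 1.17 (95% interval 1.05 to 1.31), with an unadjusted p of 0.00697 and an edgeR adjusted p of 0.376, so it was not called. An unadjusted p under 0.05 was reached by 2 of the 7 genes and by 6.94% of all loci. Without labelled cKO replicate 3, the log2 fold change of *Neto1* was 0.14 in place of 0.23 (edgeR adjusted p 0.777). With the granule marker level as a covariate the direction of *Neto1* turned, to -0.06 ± 0.24 (SE).

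*Neto2*, at chr8:85636397-85700953 (minus strand), encodes the other auxiliary protein. It had 97.9, 93.5 and 94.7 CPM in labelled cKO libraries and 96.8, 103.0 and 98.2 CPM in labelled control libraries. The groups overlapped, and the fold was 0.960 (0.892 to 1.03). Of the 6 genes that were not called, *Neto2* and *Grik4* had a fold below 1. *Neto2* was also the only member with an unnamed locus of its own strand inside its span, which held 5 to 12 fragments a library.

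Levels of different genes were compared as FPKM (fragments scaled to transcript length and library size), which the authors' software computed per library. On this scale *Grik2* was the highest of the 7, with 34.1 ± 3.04 FPKM in labelled cKO and 42.3 ± 0.637 FPKM in labelled control libraries (SD, n = 3 each). *Neto2* followed with 18.7 ± 0.187 FPKM in labelled cKO and 19.6 ± 0.458 FPKM in labelled control libraries. *Grik5* had 16.4 ± 2.41 FPKM in labelled cKO and 14.7 ± 0.727 FPKM in labelled control libraries. The range of *Grik2* over the 6 libraries lay above that of *Neto2*, whereas the ranges of *Neto2* and *Grik5* overlapped, with *Neto2* higher in 5 of 6 libraries.

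*Grik1* had 11.5, 12.2 and 12.4 FPKM in labelled cKO libraries and 12.7, 11.7 and 12.6 FPKM in labelled control libraries, below the whole range of *Grik5*. *Neto1* had 8.10 ± 0.715 FPKM in labelled cKO and 6.98 ± 0.323 FPKM in labelled control libraries. *Grik3* had 7.77 ± 0.851 FPKM in labelled cKO and 7.15 ± 0.980 FPKM in labelled control libraries. *Grik4*, the lowest by its mean over 6 libraries, had 7.04 ± 0.473 FPKM in labelled cKO and 7.13 ± 0.368 FPKM in labelled control libraries. The ranges of *Neto1*, *Grik3* and *Grik4* overlapped, so that the lower end of the order was not separated. The top of the order depended on the length behind the level. As CPM per kilobase of all exons of a locus, a scale added after the data were seen, *Neto2* had 15.3 ± 0.360 in labelled cKO and 15.9 ± 0.526 in labelled control libraries. On that scale *Grik5* had 15.2 ± 2.57 in labelled cKO and 13.5 ± 0.607 in labelled control libraries, and *Grik2* had 12.2 ± 0.867 in labelled cKO and 14.6 ± 0.237 in labelled control libraries (SD, n = 3 each). *Grik5* was then above *Grik2* in each labelled cKO library and below it in each labelled control library.

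Summed over the 5 *Grik* genes, the level was 70.7, 81.0 and 80.5 FPKM in labelled cKO libraries and 81.4, 85.3 and 84.3 FPKM in labelled control libraries. Every labelled cKO library lay below every labelled control library in FPKM. In CPM the groups overlapped, with sums of 285, 319 and 328 in labelled cKO libraries and 312, 320 and 331 in labelled control libraries. Without *Grik2* the FPKM sum was 43.3 ± 3.96 in labelled cKO and 41.4 ± 1.51 in labelled control libraries, and the groups overlapped. The summed AMPA receptor genes *Gria1* to *Gria4* had 192.5 ± 6.43 FPKM in labelled cKO and 204.1 ± 4.68 FPKM in labelled control libraries. In FPKM these groups overlapped. In CPM the AMPA sum did not overlap, at 1175 to 1223 in labelled cKO and 1230 to 1275 in labelled control libraries. The 7 NMDA receptor genes summed to 131.3 ± 4.65 FPKM in labelled cKO and 132.0 ± 0.436 FPKM in labelled control libraries, and the groups overlapped on both scales.

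The make-up of the *Grik* sum in FPKM differed between the labels. *Grik2* took 44.6%, 46.2% and 41.5% of it in labelled cKO libraries and 51.3%, 50.4% and 50.0% in labelled control libraries. *Grik5* took 21.2% ± 2.00 in labelled cKO libraries and 17.6% ± 0.447 in labelled control libraries (SD, n = 3 each). *Grik3* took 9.62%, 10.3% and 10.1% in labelled cKO libraries and 7.39%, 8.98% and 9.21% in labelled control libraries. For these 3 genes the groups did not overlap, and for *Grik1* (15.0% to 16.3% in labelled cKO, 13.8% to 15.6% in labelled control) and *Grik4* (8.33% to 9.60% in labelled cKO, 8.17% to 8.86% in labelled control) they did. Per kilobase of all exons, *Grik2* took 28.9% ± 2.14 in labelled cKO and 34.3% ± 0.621 in labelled control libraries, and *Grik5* took 35.8% ± 2.91 in labelled cKO and 31.8% ± 0.746 in labelled control libraries (SD, n = 3 each). *Grik5* thus held the largest share in labelled cKO on that scale. The groups of *Grik2* and of *Grik5* again did not overlap, but those of *Grik3* did (14.1% ± 0.339 in labelled cKO, 13.2% ± 0.955 in labelled control). A smaller share of *Grik2* makes the other shares larger by construction. The shares were therefore described and not tested.

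**Figure D4:**
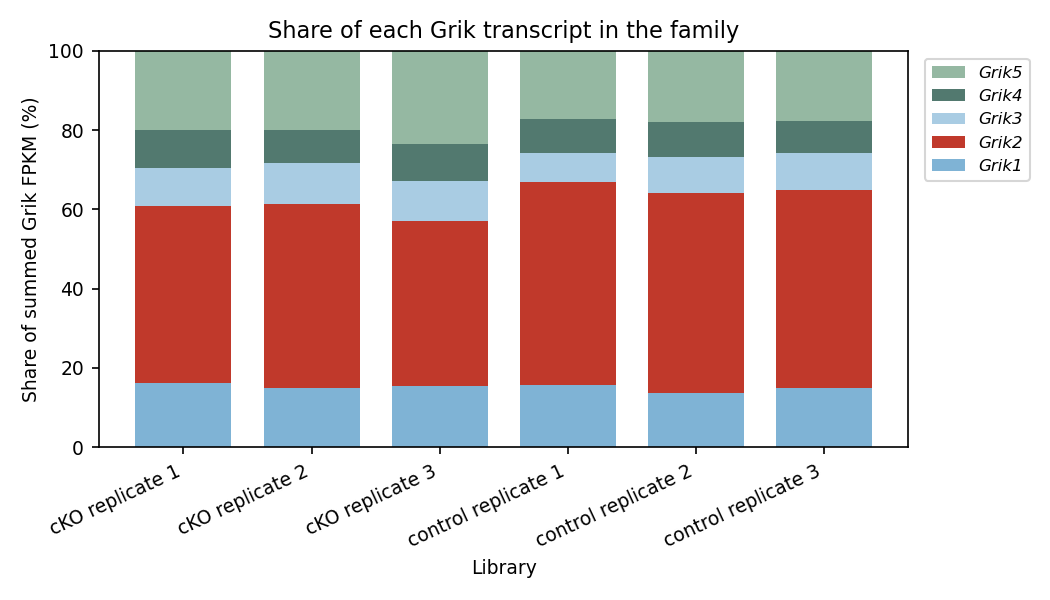
Share of the summed *Grik* level, in FPKM, held by each of the 5 genes (vertical axis, percent), 1 stacked bar a library, labelled cKO left of labelled control. *Grik2* holds 41.5% to 46.2% of the bars of labelled cKO and 50.0% to 51.3% of those of labelled control.

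As ratios of FPKM, *Grik1* to *Grik3* over *Grik4* and *Grik5* was 2.38, 2.52 and 2.04 in labelled cKO libraries and 2.89, 2.72 and 2.88 in labelled control libraries. *Neto2* over *Neto1* was 2.41, 2.42 and 2.12 in labelled cKO libraries and 2.89, 2.88 and 2.67 in labelled control libraries. Per kilobase of all exons the first ratio was 1.22 ± 0.132 in labelled cKO and 1.43 ± 0.0628 in labelled control libraries, and the second was 2.80 ± 0.317 in labelled cKO and 3.40 ± 0.144 in labelled control libraries (SD, n = 3 each). On both scales these ratios were lower in each labelled cKO library than in each labelled control library. The first ratio holds *Grik2* and the second *Neto1*, the genes already described as without overlap, so these are not separate results. The ratios were not tested, and no share over all loci was computed for them. Summed *Neto* over summed *Grik* was 0.371, 0.324 and 0.346 in labelled cKO libraries and close to 0.318 in each labelled control library on the FPKM scale. Per kilobase of all exons this last ratio overlapped between the labels, at 0.495 ± 0.0461 in labelled cKO and 0.484 ± 0.0115 in labelled control libraries.

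FPKM and CPM moved apart most for 2 genes, and the cause was not tested. CPM over FPKM varied 1.22-fold over the 6 libraries for *Grik3* and 1.10-fold for *Grik1*, against 1.02- to 1.05-fold for the other 5 genes. For *Grik1* it was 5.12 to 5.24 in labelled cKO and 4.76 to 5.04 in labelled control libraries. For *Grik2* it was 3.15 to 3.25 in labelled cKO and 3.10 to 3.14 in labelled control libraries, also without overlap. The *Grik2* log2 fold change was -0.26 on counts and -0.30 on log2(FPKM + 1), so its FPKM sums, shares and ratios carry the larger fall. The log2 fold change of *Grik1* was 0.05 on counts and -0.04 on log2(FPKM + 1), so its direction was not settled. *Grik1* has 7 assembled transcripts, 5 of which are variants of the reference ones, and their separate levels were not analysed here.

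The other ionotropic glutamate receptor genes mostly did not pass the test. None of the 4 AMPA receptor genes was called by edgeR or DESeq2, with 1 at an unadjusted p under 0.05, and their median log2 fold change was -0.06. *Gria4*, a subunit with fast gating, had a log2 fold change of -0.14 ± 0.05 (SE) and an edgeR adjusted p of 0.341. Of the 7 NMDA receptor genes 1 was called lower and none higher, and their median was 0.04. *Grin2c*, which encodes an NMDA receptor subunit, fell by 0.56 on the log2 scale (SE 0.08, edgeR adjusted p 0.00309). The paper detected *Grin2c* transcripts in several nuclei of the medulla by in situ hybridization.

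Genes linked to kainate receptors were not called. Of the 18 scaffold and trafficking partners none was called by edgeR or DESeq2, 1 had an unadjusted edgeR p under 0.05, and the median log2 fold change was 0.00. *Grip1*, a PDZ scaffold that binds GluK2, had 0.19 (edgeR adjusted p 0.626), and *Dlg1*, another PDZ scaffold, had -0.09, these being the ends of the list. The trans-synaptic partners *C1ql2*, *C1ql3* and *Nrxn3* had a median of 0.05, and *C1ql2* and *C1ql3* encode secreted synaptic organizers while *Nrxn3* encodes a presynaptic neurexin. The *Adar* gene family had 0.02 for *Adar*, 0.00 for *Adarb1*, whose product can edit the Q/R site, and 0.02 for *Adarb2*. The 5 genes for kinases, a phosphatase and the chloride transporter *Slc12a5* had a median of 0.00. In the trans-synaptic, *Adar* family and kinase lists no gene was called by edgeR or DESeq2, and 0 had an unadjusted edgeR p under 0.05.

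**Figure D5:**
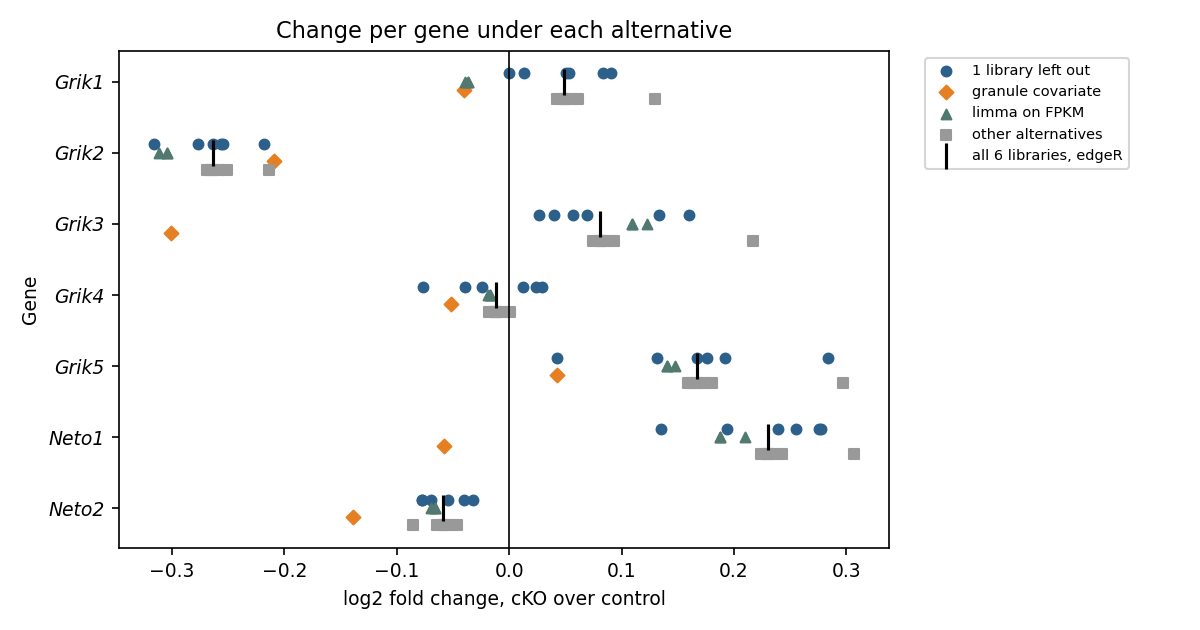
Log2 fold change of each of the 7 genes, labelled cKO over labelled control (horizontal axis), with a black bar for edgeR on all 6 libraries and symbols for the fits with 1 library left out, with the granule covariate, with limma on FPKM and with the other settings. *Grik2* lies between -0.32 and -0.21 in every fit shown, and *Neto1* is above 0 in all but the fit with the granule covariate (-0.06).

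Genes whose level followed a kainate receptor gene most closely were found by Pearson's r of log2 CPM over the 6 libraries, among 11610 singly named loci of at least 5 CPM. With 6 libraries such values are a description, and the points share the genotype and the depth. For *Grik2* the closest were a locus of *Ctnna3* (r = 0.997, log2 fold change -0.56) and *Srsf10* (r = 0.989, -0.11), and 33 loci were above 0.95. *Ctnna3* encodes an alpha-catenin of cell junctions and *Srsf10* a splicing factor. For *Neto1* they were *Vwa5b2* (0.996), *Hapln1* (0.994), which links the perineuronal matrix, and 9630013A20Rik (0.990). For *Grik5* they were *Syn3* (0.992), a synapsin of synaptic vesicles, *Camta1* (0.992) and *Prepl* (0.981).

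The remaining 4 genes had *L3mbtl1*, *Apol8* and *Ccdc85a* (*Grik1*, 0.979 to 0.984), *Odz3*, *Man2b2* and *Peli3* (*Grik3*, 0.985 to 0.994), *Kif1b*, *Sec63* and *Slc16a6* (*Grik4*, 0.980 to 0.987), and *Fbxl14*, *Tmem161b* and *Ncapg2* (*Neto2*, 0.981 to 0.986) as their closest. No member was among the closest genes of another. The highest r between members was 0.839, for *Grik5* and *Neto1*.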

How the data were processed

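Total RNA of 6 pools of 3 brainstems was depleted of ribosomal RNA and sequenced with a stranded kit. Per the submitters' processing notes, the authors used CASAVA 1.6, TopHat2 2.0.9, Cufflinks 2.2.0, Cuffdiff and mm10. The strand setting of the counting is not given in the sources used here. The deposited table holds whole fragment counts per locus and FPKM scaled between libraries by the authors with Cuffdiff, and its 2 columns of scaled fragments were not used. Groups came from the labels and the table's conditions. The 7 genes and all gene lists were chosen with earlier results of these data known.

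Counts were normalized by TMM, filtered with filterByExpr and tested with edgeR 4.0.16 in R 4.3.3, with Benjamini-Hochberg adjustment over 21854 loci and a threshold of 0.05. The common biological coefficient of variation was 0.0552. Depth was 12034613 to 13202707 fragments, and no pair of libraries was identical. CPM were computed from the TMM-scaled totals, and a prior count of 2 was added before taking log2. Alternatives were DESeq2 1.42.0, limma 3.58.1 on log2(FPKM + 1) and log2(FPKM + 0.1) for loci at 1 FPKM in 3 libraries or with no filter, other scaling, other count filters, libraries left out, the replicate number as a block, and a granule marker covariate. The steps were tested on simulated data. There edgeR found 29.2% of the 1.25-fold changes, 52.1% of the 1.5-fold and 95.7% of the 4-fold changes. Of its 137 calls, 15 were false, so small changes could be missed and some calls were wrong.

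Named genes are the 7 members, *Hoxa5*, the 3 loci most correlated with each member, up to 4 genes of smallest p in each list, and at most 2 markers in a list. Some genes that this rule takes in are left out of the text. The other genes of the lists that are named were chosen to show who belongs to them. Coding sequences were read from GENCODE M21 with Python 3.11.15 and aligned with Biopython 1.88.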

Additional observations from a re-analysis of the deposited data

How the results depend on the processing

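*Grik2* kept its direction under all 17 alternatives, from -0.32 to -0.21 on the log2 scale, and its call under 5 of them, among them DESeq2 (-0.26, adjusted p 0.0191), library size alone (-0.27, 0.0305) and no count filter (-0.26, 0.00664). The call was lost with upper-quartile factors (-0.25, adjusted p 0.0530), with at least 50 fragments in 3 libraries (-0.26, 0.0612), with limma on log2(FPKM + 1) (-0.30, 0.436), on log2(FPKM + 0.1) (-0.31, 0.463) and with no filter (-0.30, 0.614), without labelled cKO replicate 1 and labelled control replicate 3 together (-0.21, 0.128), and with the granule covariate (-0.21, 1). Members called lower were 0 in those 7 settings and 0 to 1 with a library left out (*Grik2* then ranged from -0.3159 to -0.2178), and members called higher were 0 throughout. The cause was not tested.

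The direction reversed for *Grik1* with limma (-0.0363 on log2(FPKM + 1) with and without a filter, -0.039 on log2(FPKM + 0.1)) and with the granule covariate (-0.0398). *Grik1* also reversed without labelled control replicate 2 (-0.0001, the lower end of a range up to 0.0902 with a library left out). *Grik3* reversed with the covariate (-0.30, range 0.03 to 0.16 with a library left out). *Grik4* reversed with upper-quartile factors (0.0006) and had a range of -0.0768 to 0.0294 with a library left out. Within that range *Grik4* was above 0 without labelled cKO replicate 1 (0.0121), labelled cKO replicate 2 (0.0294) or labelled control replicate 2 (0.0234). *Neto1* reversed with the covariate (-0.0579, range 0.14 to 0.28 with a library left out). *Grik5* ranged from 0.04 to 0.28 and *Neto2* from -0.08 to -0.03 with a library left out. The *Grik4* share difference, 0.593 points on FPKM, was 0.0136 points on CPM per kilobase of union exons. On that scale the *Grik2* and *Grik5* share differences were -5.44 and 4.00 points (-6.44 and 3.58 on FPKM), while the shares themselves are those given for both scales in the comparison of levels.

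Loci called were 116, with 221 under no filter, 76 under at least 50 fragments, 0, 1 and 0 with limma on log2(FPKM + 1), on log2(FPKM + 0.1) and with no filter (1298 at an unadjusted p under 0.05 in the first), 1 with the covariate, and 44 to 126 with a library left out (44 without labelled control replicate 1, 65 without labelled cKO replicate 3).

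Same-numbered libraries deviated together with r of 0.0316, -0.0821 and 0.0504, so the numbers were not read as pairs. With the replicate number as a block, *Grik2* was -0.27 (adjusted p 0.0270), and no member's call changed. Summing all loci of a name gave no value, since each member has 1 locus.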
